A study of Mus musculus with 6 samples.

Results

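The 10 genes described here, *Atf4*, *Atf5*, *Ddit3*, *Trib3*, *Nupr1*, *Sesn2*, *Asns*, *Chac1*, *Psat1* and *Slc7a5*, are the transcription factor ATF4, its close relative ATF5 and well-known targets of the ATF4 stress response. They were found by name, through the Ensembl identifiers of the expression table, and this set of genes was chosen with earlier results of these data known. Of the 10 genes, 9 had a row among the 12101 genes of the table, and *Chac1* had none. Expression was measured by RNA-seq in megakaryocyte–erythroid progenitors (MEPs), bone marrow cells that give rise to red blood cells and platelet-forming megakaryocytes. The cells were sorted from adult CD-1 mice that carried the M2-rtTA activator at the *Rosa26* locus and a *Nanog* cDNA behind a doxycycline (dox) responsive promoter. There were 3 libraries of mice given dox in the drinking water for 5 days and 3 libraries of untreated mice. Every mouse carried both transgenes and no dox-treated mice without the *Nanog* transgene were compared, so effects of dox itself and of *Nanog* cannot be told apart. *Rosa26* is active in nearly all tissues, so the transgene can be induced in other cells of the animal as well as in MEPs. How many mice stood behind each library is not given in the sources used here, and the p-values measure the spread between these libraries only.

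ATF4 is the main effector of the integrated stress response. In this response, kinases that sense viral RNA, misfolded protein in the endoplasmic reticulum (ER), amino acid shortage or lack of heme phosphorylate the translation factor eIF2, which slows protein synthesis as a whole and favours translation of *Atf4*. The ATF4 protein then activates genes for amino acid synthesis and uptake, tRNA charging and, under lasting stress, growth arrest and cell death. In erythroid precursors the heme-regulated kinase of this pathway matches globin synthesis to the heme supply. Because ATF4 is controlled largely by translation, its mRNA level does not report its protein level.

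Of the 9 measured genes, 2 rose with dox, *Nupr1* to 3.25 times and *Trib3* to 2.14 times its untreated level, and 1 fell, *Sesn2*, to 0.518 times its untreated level. They passed an adjusted p of 0.05 in limma, a linear model fitted to all 12088 genes with at least 1 CPM (counts per 1000000 reads) in 3 or more libraries. In the same fit 4.59% of all genes tested were called higher and 3.18% lower. The other 6 measured genes did not pass. An unadjusted p under 0.05 was found in 5 of the 9 genes, against 29.2% of all genes tested. The groups did not overlap in 4 genes that were higher with dox, *Ddit3*, *Trib3*, *Nupr1* and *Psat1*, against 17.7% of all genes tested, and in 2 that were lower, *Sesn2* and *Slc7a5*, against 18.2% of all genes tested. *Atf4* itself was not called. The median log2 fold change of the 9 genes was -0.07, beside -0.03 over all genes tested, and it changed sign to 0.04 with quantile normalization and with scaling by total reads. The genes did not move in a common direction, as the plot of fold changes shows.

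**Figure D1:**
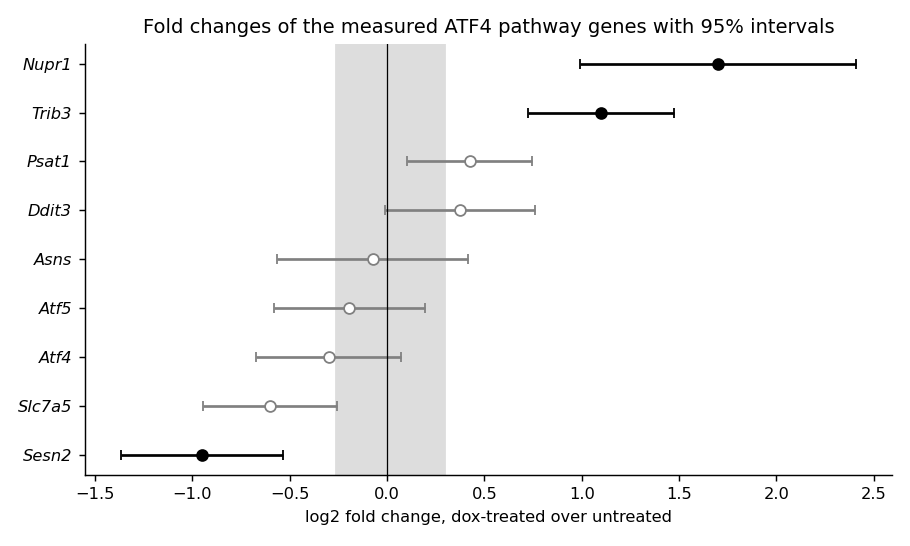
The log2 fold change of each measured ATF4 pathway gene, dox-treated over untreated, with its 95% interval from limma (3 libraries per group). Filled points passed an adjusted p of 0.05, open points did not, and the grey band spans the middle 50% of all 12088 genes tested, from -0.26 to 0.30. *Nupr1* and *Trib3* lie to the right of the band and *Sesn2* to its left with their whole intervals.

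The table gives log2 values of CPM, taken per normalized library size after adding 0.5 reads, and levels below are the same values on the linear scale. The 6 libraries held between 11264803 and 16153600 reads on listed genes, and 1 read was worth between 0.0642 and 0.091 CPM. *Nanog* had between 15959 and 19609 reads in the dox-treated libraries and between 1 and 13 in the untreated libraries, as their labels say. All 15 erythroid markers searched and 13 of 15 megakaryocyte markers were in the table. Dox-treated replicate 3 stood apart from the other dox-treated libraries in several gene groups. Without it, 14.9% of all genes tested were called higher and 14.0% lower, more than with all libraries, and counts without it are read against these shares. With all libraries, 29.2% of genes tested had an unadjusted p under 0.05.

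ATF4 protein, usually paired with a C/EBP protein, binds a composite element whose core reads TGATGNAA. RefSeq promoters of the GRCm38.p6 build, from 250 bases before to 50 bases after a gene's start, were searched for these letters on both strands. Entries were found for 9 of the 10 genes, in 11 windows, and *Slc7a5* had no entry. The letters were present in the windows of 4 genes, *Trib3*, *Nupr1*, *Asns* and *Chac1*, and in 3.97% of all 32851 promoters. Counted by gene, 4.51% of all genes with a promoter entry held them. The matches are shown because the 2 genes that rose with dox both hold one, and because *Asns* and *Chac1* hold one too. Each sequence is read 5′ to 3′ on the strand of its gene with the match in capitals, and a match on the opposite strand therefore appears as its reverse complement.
Trib3: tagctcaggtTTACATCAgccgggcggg
Nupr1: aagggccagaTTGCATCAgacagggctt
Asns: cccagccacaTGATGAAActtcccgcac
Chac1: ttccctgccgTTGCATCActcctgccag
The *Trib3* match begins at base 15 of the RefSeq transcript, in the window chr2:152169765-152169792 (minus strand). In the NCBIM37 annotation the first exon of *Trib3* starts later, so that the match lies before the gene and the UTR reaches only into the end of the window. The *Nupr1* match begins 110 bases before the RefSeq start, at chr7:133769077-133769104 (minus strand), a place that the NCBIM37 annotation counts as UTR of a longer *Nupr1* transcript. The *Asns* match begins 23 bases before the RefSeq start, at chr6:7643215-7643242 (minus strand), likewise within an annotated UTR exon. The *Chac1* match begins 193 bases before the start, at chr2:119176775-119176802 (plus strand), between annotated genes. In *Nupr1* and *Chac1* the letters are the stricter form TGATGCAA, which 0.89% of all promoters hold. The cyclic AMP response element TGACGTCA was in 0 of the 11 windows and in 1.79% of all promoters. The letters CCACG, one arm of the ER stress element, were in 8 of the 11 windows, of 7 genes, and in 32.77% of all promoters. A match is a description of the sequence and shows no binding. *Asns* holds a match and did not pass the test, and *Sesn2* passed it with no match in its window.

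*Atf4* (ENSMUSG00000042406, NCBIM37 chr15:80085614-80087970, plus strand) is the transcription factor at the centre of the response. It had 164, 167 and 212 CPM in dox-treated replicates 1, 2 and 3 and 222, 248 and 198 CPM in untreated replicates 1, 2 and 3. The groups overlapped, because dox-treated replicate 3 was above untreated replicate 3. *Atf4* had 181 ± 27.0 CPM with dox and 222 ± 24.8 CPM without (SD, n = 3 each). The log2 fold change was -0.30 (95% interval from -0.67 to 0.07, adjusted p = 0.245). Without dox-treated replicate 3 it was -0.42 (adjusted p = 0.0595). The leader of the *Atf4* transcript, the stretch before its coding sequence, is 594 bases long and holds 3 upstream ATG triplets, against a median of 160 bases and 1 triplet over 19682 annotated coding transcripts. Such upstream starts are the known means by which eIF2 phosphorylation favours translation of *Atf4*.

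*Atf5* (ENSMUSG00000038539, chr7:52067627-52072028, minus strand), a related factor with a leader of 373 bases and 2 upstream ATG triplets, takes part in the mitochondrial stress response. It was among the genes with few reads, with 6.81, 6.29 and 5.04 CPM with dox and 7.04, 7.57 and 6.05 CPM without. The groups overlapped. Its log2 fold change was -0.19 (95% interval from -0.58 to 0.20, adjusted p = 0.451). Exons of *Nup62* and *Il4i1* on the opposite strand overlap those of *Atf5* by 82 bases. Whether the counting used strand is not given in the sources used here, so reads there are uncertain.

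*Ddit3* (ENSMUSG00000025408, chr10:126727830-126733344, plus strand) encodes CHOP, the factor tied to cell death under lasting ER stress. It had 26, 19.5 and 22.6 CPM with dox and 15.1, 19.4 and 18 CPM without. The groups did not overlap, but the lowest dox-treated and the highest untreated replicate, both number 2, nearly met. The log2 fold change was 0.37 (95% interval from -0.01 to 0.76, adjusted p = 0.181), which did not pass the test. Its exons overlap those of *Mars* on the opposite strand by 68 bases, and *Mars*, which charges methionine tRNA, had 193 ± 34.0 CPM with dox and 222 ± 17.6 CPM without (SD, n = 3 each).

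*Nupr1* (ENSMUSG00000030717, chr7:133766763-133770524, minus strand) encodes a small chromatin protein induced by many stresses. It had 4.38, 6.07 and 3.37 CPM in dox-treated replicates 1, 2 and 3, from 59, 81 and 52 reads. In untreated replicates 1, 2 and 3 it had 1.13, 1.88 and 1.23 CPM, from 14, 25 and 13 reads. The groups did not overlap, and the lowest dox-treated library was above the highest untreated one. *Nupr1* rose by 1.70 on the log2 scale (standard error 0.29, 95% interval from 0.99 to 2.41, adjusted p = 0.0288), and the exact permutation test of the group means gave p = 0.1, the smallest it can give for 3 libraries against 3. Leaving out some single libraries lost the call. The adjusted p was 0.0969 without dox-treated replicate 1, 0.0849 without dox-treated replicate 2, 0.0886 without untreated replicate 1 and 0.102 without untreated replicate 3, with log2 fold changes between 1.48 and 1.72. Those fits called between 92 and 136 of all genes tested higher, against 555 with all libraries. The call held without dox-treated replicate 3 (0.017) and without untreated replicate 2 (0.0468), and 11 of 16 alternative fits called *Nupr1*.

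*Trib3* (ENSMUSG00000032715, chr2:152163158-152169768, minus strand) encodes a pseudokinase that binds ATF4 and dampens its activity. It had the fewest reads of the 9 genes. Dox-treated replicates 1, 2 and 3 had 2.17, 2.27 and 1.83 CPM from 29, 30 and 28 reads, and untreated replicates 1, 2 and 3 had 1.13, 0.850 and 0.955 CPM from 14, 11 and 10 reads. The groups did not overlap. *Trib3* rose by 1.10 on the log2 scale (standard error 0.15, 95% interval from 0.73 to 1.47, adjusted p = 0.018). The call was lost with precision weights from voom, which allow for the larger error of low counts (adjusted p = 0.0938), and with a mean-variance trend (0.0978). It was also lost without dox-treated replicate 1 (adjusted p = 0.0738), without dox-treated replicate 2 (0.0775), without untreated replicate 2 (0.0554) and without untreated replicate 3 (0.0772), while the log2 fold changes stayed between 1.004 and 1.09. The call held without dox-treated replicate 3 (0.012) and without untreated replicate 1 (0.0435), and 8 of 16 alternative fits called *Trib3*. *Trib3* was below 1 CPM in untreated replicates 2 and 3 and passed the filter only through the dox-treated libraries, and with no filter on low values its adjusted p was 0.0181.

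*Sesn2* (ENSMUSG00000028893, chr4:132047947-132066416, minus strand) encodes a leucine sensor that restrains the growth kinase mTORC1 when amino acids are short. It had 14.5, 16.0 and 15.1 CPM in the dox-treated libraries and 31.7, 34.4 and 23.2 CPM in the untreated libraries. The dox-treated libraries lay close together and below every untreated library. *Sesn2* had 15.2 ± 0.757 CPM with dox and 29.8 ± 5.82 CPM without (SD, n = 3 each), a log2 fold change of -0.95 (standard error 0.17, 95% interval from -1.36 to -0.53, adjusted p = 0.0333). This was the opposite direction to *Nupr1* and *Trib3*, which are likewise targets of ATF4. The adjusted p was 0.114 without dox-treated replicate 1, 0.109 without dox-treated replicate 2, 0.099 without untreated replicate 1 and 0.0923 without untreated replicate 2, while the log2 fold changes stayed between -0.99 and -0.83. Those fits called between 79 and 126 of all genes tested lower, against 384 with all libraries. The call held without dox-treated replicate 3 (0.0296) and without untreated replicate 3 (0.0448), and 12 of 17 alternative fits called *Sesn2*.

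*Chac1* (ENSMUSG00000027313, chr2:119176965-119180117, plus strand), an enzyme that degrades glutathione, was absent from the table. Its level was not analysed here.

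*Asns* (ENSMUSG00000029752, chr6:7625169-7643254, minus strand) encodes asparagine synthetase. It had 178, 207 and 293 CPM with dox and 230, 251 and 218 CPM without. Dox-treated replicates 1 and 2 were below all untreated libraries and dox-treated replicate 3 was above them all. Its log2 fold change was -0.07 (95% interval from -0.57 to 0.42, adjusted p = 0.828), with the opposite sign under quantile normalization, scaling by total reads and without dox-treated replicate 1. Without dox-treated replicate 3 it was -0.28 (adjusted p = 0.129).

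*Psat1* (ENSMUSG00000024640, chr19:15979168-16021827, minus strand) encodes an enzyme of serine synthesis. It had 154, 172 and 159 CPM with dox and 129, 130 and 104 CPM without, and the groups did not overlap. The log2 fold change was 0.42 (95% interval from 0.10 to 0.74, adjusted p = 0.0983), which did not pass the test. Parts of its transcript match other places of the genome, on chromosome 11 over 74.4% of its length at 89.2% identity and on chromosome 1 over 33% at 84.7%, and no gene at either place was in the table.

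*Slc7a5* (ENSMUSG00000040010, chr8:124405052-124431594, minus strand) encodes LAT1, the transporter of leucine and other large neutral amino acids. It had 189, 192 and 205 CPM with dox and 249, 335 and 310 CPM without. Every dox-treated library was below every untreated library. *Slc7a5* had 195 ± 8.46 CPM with dox and 298 ± 44.5 CPM without (SD, n = 3 each), a log2 fold change of -0.60 (95% interval from -0.95 to -0.26). Its adjusted p of 0.0573 did not pass, and over 17 alternative fits, of which 6 called it, the value ranged from 0.00889 to 0.187. It was 0.0398 without dox-treated replicate 3 and between 0.0703 and 0.187 without any other single library. The levels of all measured genes in each library are shown together.

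**Figure D2:**
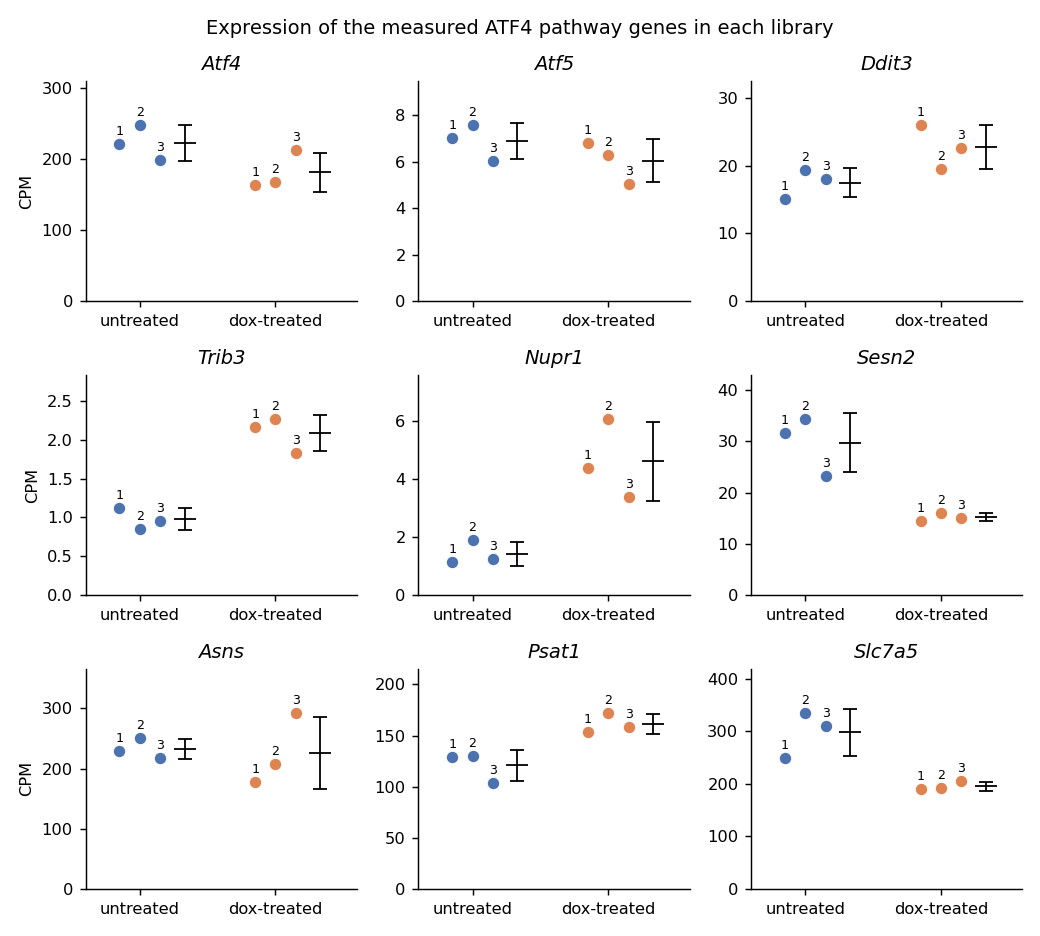
The level in CPM of each measured ATF4 pathway gene (vertical axes, each from 0) in the 3 untreated (blue) and 3 dox-treated (orange) libraries, numbered by replicate, with black bars for the mean and SD of each group. The groups do not overlap for *Ddit3*, *Trib3*, *Nupr1*, *Sesn2*, *Psat1* and *Slc7a5*, and dox-treated replicate 3 is the highest of all libraries for *Asns*.

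To compare levels between genes, CPM were divided by the length of each gene's longest coding transcript. In untreated MEPs *Atf4* had the highest level per kb, 129 ± 14.4 CPM per kb, followed by *Asns* with 116 ± 8.33 and *Slc7a5* with 84.8 ± 12.7 CPM per kb (SD, n = 3 each). *Psat1* had 46.2, *Ddit3* 19.7, *Sesn2* 8.57, *Atf5* 3.79, *Nupr1* 1.70 and *Trib3* 0.482 CPM per kb. *Atf4* and *Asns* overlapped between libraries, and all other neighbours in this order were separate. With dox *Asns* and *Atf4*, at 112 ± 29.6 and 105 ± 15.6 CPM per kb (SD, n = 3 each), overlapped again. *Psat1*, at 61.7, now stood above *Slc7a5*, at 55.5 CPM per kb. *Nupr1*, at 5.56 CPM per kb, had moved from below *Sesn2* and *Atf5* to overlap with *Sesn2*, at 4.38, and above *Atf5*, at 3.33. *Trib3* stayed the lowest in both groups, at 1.03 CPM per kb with dox.

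The genes upstream of ATF4 were described next, from lists of the pathway. Of the 4 eIF2 kinases, 0 passed the limma test, and 1 had an unadjusted p under 0.05, beside 29.2% of all genes. The kinase activated by lack of heme, *Eif2ak1*, had 98.2, 106 and 114 CPM with dox and 135, 139 and 130 CPM without, with groups that did not overlap. Its log2 fold change was -0.35 (adjusted p = 0.095, and 0.0316 without dox-treated replicate 3). Over 17 alternative fits, of which 3 called *Eif2ak1*, the adjusted p was between 0.0122 and 0.284. The kinase that senses double-stranded RNA, *Eif2ak2*, differed by -0.42 on the log2 scale (adjusted p = 0.245) with overlapping groups. Of 10 genes for eIF2, for its exchange factor eIF2B and for the phosphatase that reverses its phosphorylation, 0 passed and 2 had an unadjusted p under 0.05, and without dox-treated replicate 3, 1 was called higher and 3 lower. The 2 genes were the eIF2B subunit *Eif2b4* (log2 fold change -0.45, adjusted p = 0.0852) and the phosphatase subunit *Ppp1r15b* (-0.28, adjusted p = 0.149). *Ppp1r15a*, the phosphatase subunit that ATF4 and CHOP induce as feedback, was singled out after its values were seen. It had 88.2 and 81.0 CPM in dox-treated replicates 1 and 2 but 48.1 in replicate 3, against 54.2, 43.2 and 54.0 CPM without dox. Its log2 fold change was 0.48 (adjusted p = 0.264, and 0.0241 without dox-treated replicate 3). Over 17 alternative fits, of which 2 called *Ppp1r15a*, the adjusted p was between 0.0128 and 0.556.

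In the amino acid lists described next 1 gene was called, and *Asns*, *Psat1* and *Slc7a5* above had not passed. Of 8 measured genes of amino acid synthesis, 0 passed the limma test and 1 had an unadjusted p under 0.05, a smaller share than over all genes. *Psph*, which makes serine in the step after PSAT1, had a log2 difference of 0.39 (adjusted p = 0.129) with groups that did not overlap. *Gpt2*, a mitochondrial alanine transaminase, had 0.65 (adjusted p = 0.172) with overlapping groups. Of 7 measured amino acid transporter genes, 0 rose and 1 fell, against 4.59% and 3.18% of all genes tested. An unadjusted p under 0.05 was found in 4 of them, against 29.2% of all genes tested. The groups did not overlap in *Slc38a2*, which was higher (log2 fold change 0.36, adjusted p = 0.1), against 17.7% of all genes tested. They also did not overlap in 2 lower genes, *Slc7a1* and *Slc1a5* (-0.47, adjusted p = 0.089), against 18.2% of all genes tested. The gene that fell was *Slc7a1*, the transporter of arginine and lysine, with 80.5, 87.4 and 97.4 CPM with dox and 131, 179 and 140 CPM without (log2 fold change -0.76, adjusted p = 0.0444). *Slc3a2*, which encodes the heavy chain that pairs with LAT1, was singled out after its values were seen as the partner of *Slc7a5*, and its log2 fold change was 0.03 (adjusted p = 0.893). Of 13 genes for tRNA charging and export, 0 passed and 1 had an unadjusted p under 0.05, again a smaller share than over all genes. All 13 had lower means with dox, but 2 of them changed sign with scaling by total reads and 2 with quantile normalization. *Wars*, which charges tryptophan tRNA, differed by -0.40 on the log2 scale (adjusted p = 0.113), and *Nars*, which charges asparagine tRNA, had -0.32 (adjusted p = 0.235). The mean of the 13 genes in dox-treated replicate 3 was 0.17 above the overall mean on the log2 scale, against -0.30 and -0.21 in dox-treated replicates 1 and 2. Without replicate 3, 4 of the 13 were called lower, in a fit that called 14.0% of all genes lower.

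Of 14 other measured genes that ATF4 is known to act on, 1 rose and 1 fell, against 4.59% and 3.18% of all genes tested, so the counts alone say little about the list. The gene that rose was *Hmox1*, which encodes heme oxygenase 1, the enzyme that breaks down heme, and which several other stress factors control too. It had 6.96, 9.49 and 5.68 CPM with dox, from 94, 127 and 88 reads, and 0.816, 0.998 and 0.864 CPM without, from 10, 13 and 9 reads. It rose by 3.02 on the log2 scale (standard error 0.21, adjusted p = 0.00436), more than any of the 9 measured genes, with an adjusted p between 0.000737 and 0.0285 over 17 alternative fits. *Hmox1* was below 1 CPM in every untreated library and entered the filtered fits only through the dox-treated libraries, where it is high, so its passing the filter is no support for the difference. The gene that fell was *Bcl2l11*, which encodes BIM, a protein that starts cell death. It had 13.1, 14.0 and 18.8 CPM with dox and 45.0, 53.5 and 49.5 CPM without. Its fall by 1.70 on the log2 scale had a standard error of 0.17 and an adjusted p of 0.0101. It passed under 16 of 17 alternatives, and the adjusted p over all of them was between 0.000737 and 0.0551. The median log2 fold change of the 14 genes was 0.06, and 6 of them had an unadjusted p under 0.05, against 29.2% of all genes tested.

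Of 20 genes for ER chaperones and ER stress sensors, 0 rose and 3 fell, in a fit that called 3.18% of all genes lower. The genes that fell were *Hsp90b1* and *Calr*, which fold proteins in the ER, and *Hyou1*, a helper of the same folding machinery, with log2 fold changes of -0.67, -0.58 and -0.53 (adjusted p = 0.0399, 0.0481 and 0.0357). *Hyou1* had 174, 177 and 174 CPM with dox and 258, 267 and 235 CPM without. Means were lower with dox in 18 of the 20 genes, in 16 with scaling by total reads and in 17 with quantile normalization, and the groups did not overlap in 13 genes, all lower, against 18.2% of all genes tested. The list's median of -0.41 was below the -0.03 of all genes tested. An unadjusted p under 0.05 was found in 11 of the 20 genes, against 29.2% of all genes tested. Of 9 genes for mitochondrial chaperones and proteases, 1 fell, against 3.18% of all genes tested. This was the chaperonin *Hspd1*, with 698, 663 and 785 CPM with dox and 1095, 1482 and 1107 CPM without (log2 fold change -0.77, adjusted p = 0.0434). An unadjusted p under 0.05 was found in 2 of the 9, against 29.2% of all genes tested. Of 13 genes encoded by mitochondrial DNA, 9 fell, against 3.18% of all genes tested. They were *mt-Nd1*, *mt-Nd2*, *mt-Nd4*, *mt-Nd4l*, *mt-Co1*, *mt-Co2*, *mt-Atp6*, *mt-Atp8* and *mt-Cytb*, with log2 fold changes between -0.90 and -0.61. All 13 had an unadjusted p under 0.05, against 29.2% of all genes tested. The calls of the transporter, ER, mitochondrial chaperone and mitochondrial genome lists were lost in most fits with 1 library left out. Without dox-treated replicate 1, without replicate 2 or without any single untreated library, 0 genes of these lists passed. Those fits called between 36 and 126 of all genes tested lower, against 384 with all libraries. Without dox-treated replicate 3 the numbers called lower were 1, 8, 4 and 12, in a fit that called 14.0% of all genes lower. In that fit 1 transporter gene was also called higher. The median of the mitochondrial genome list was -0.69, and -0.39 with quantile normalization.

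**Figure D3:**
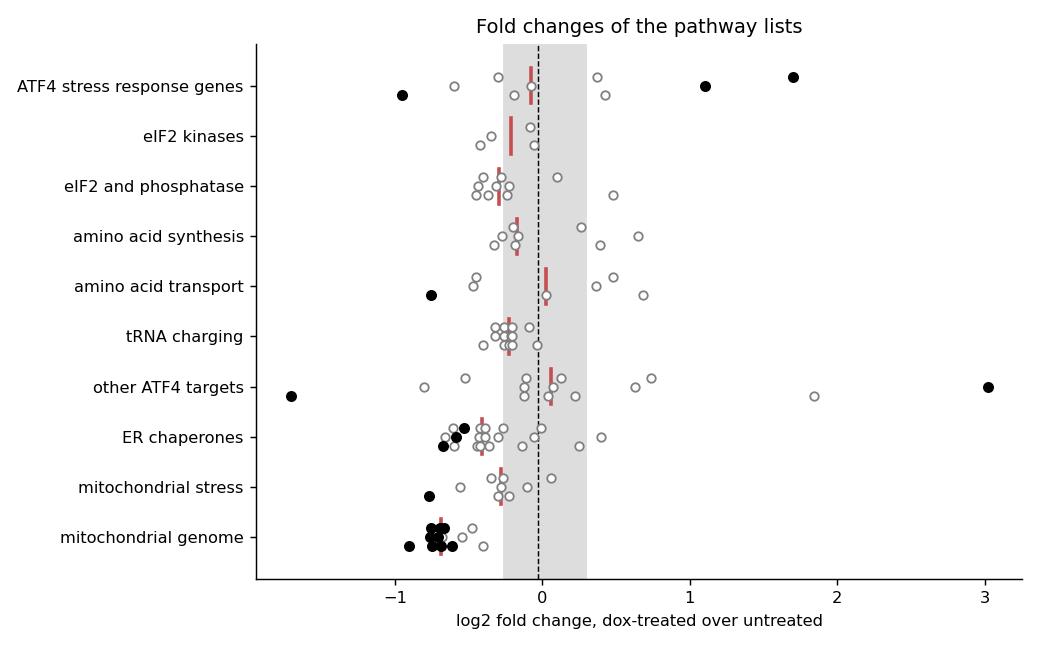
The log2 fold change, dox-treated over untreated (horizontal axis), of each measured gene of the ATF4 pathway lists (rows), with filled points for genes that passed an adjusted p of 0.05 in limma. Red bars are list medians, the dashed line is the median of all genes tested and the grey band spans their middle 50%. The mitochondrial genome list has the lowest median, -0.69 (-0.39 with quantile normalization), and *Hmox1* at 3.02 is the highest gene and *Bcl2l11* at -1.70 the lowest.

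Summed levels of granulocyte and monocyte, mast cell and megakaryocyte markers did not overlap between the groups, and those of erythroid markers did. The sort used a lineage cocktail and antibodies to cKit, Sca1, CD34 and CD16/32, by which MEPs are commonly set apart from mature granulocytes and monocytes and from their progenitors. The summed level of 15 granulocyte and monocyte markers was between 559 and 825 CPM with dox and between 2554 and 5890 CPM without. Of the 15, 11 fell, against 3.18% of all genes tested, among them *Elane* and *Mpo*, which encode neutrophil granule enzymes. This count was 3, 5 and 12 without dox-treated replicate 1, 2 or 3, and 5, 8 and 1 without untreated replicate 1, 2 or 3. Over all genes tested the numbers called lower in the same fits were 80, 91 and 1687, and 79, 126 and 36. Of 8 measured mast cell markers, 3 rose, *Cpa3*, *Ms4a2* and *Slc18a2*, against 4.59% of all genes tested. The summed level of the 8 was between 947 and 1135 CPM with dox and between 596 and 908 CPM without. Most of this sum came from *Srgn*, *Kit* and *Gata2*, of which 0 passed, and *Kit* and *Mcpt8* had lower means with dox, with log2 fold changes of -0.39 and -0.93 (adjusted p = 0.189 and 0.201). The 3 calls became 4 without dox-treated replicate 3, in a fit that called 14.9% of all genes higher. They became 1 without any other single library, in fits that called between 92 and 143 of all genes tested higher. The defining mast cell genes *Fcer1a*, *Mcpt4*, *Cma1*, *Tpsb2*, *Tpsab1*, *Hdc* and *Mrgprb1* were not in the table. Of 15 erythroid markers, 2 fell, *Ermap* and *Add2*, against 3.18% of all genes tested. Without dox-treated replicate 3, 10 were called lower and 1 higher, in a fit that called 14.0% of all genes lower, and without dox-treated replicate 1, 0 were called lower and 1 higher. Without any other single library 0 passed in either direction. Their summed level was between 4723 and 8907 CPM with dox and between 7730 and 8280 CPM without. Of 13 measured megakaryocyte markers, *Gp1ba*, *Gp9* and *Selp* rose and *Vwf* fell, against 4.59% and 3.18% of all genes tested. Means were higher with dox in 8 of the 13 and lower in 5. The summed level was between 198 and 501 CPM with dox and between 136 and 174 CPM without. The sum with dox was lowest in dox-treated replicate 3 and followed *Itga2b*, which did not pass (adjusted p = 0.0694) and had 319, 314 and 66.9 CPM with dox and 37.5, 24.1 and 39.3 CPM without. Without dox-treated replicate 3, 6 megakaryocyte markers were called higher and 2 lower, in a fit that called 14.9% of all genes higher and 14.0% lower. Without dox-treated replicate 1, 0 were called higher and 1 lower, without replicate 2, 0 and 0, and without untreated replicates 1, 2 and 3, 0 and 0, 0 and 2, and 1 and 0. These fits called between 92 and 143 of all genes tested higher and between 36 and 126 lower. *Ppbp* and *Gp6* were not in the table. These named markers were chosen after their values were seen. The part of cell composition in the differences of the ATF4 pathway genes was not tested, and in such bulk libraries fewer cells of a type and less RNA per cell cannot be told apart.

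**Figure D4:**
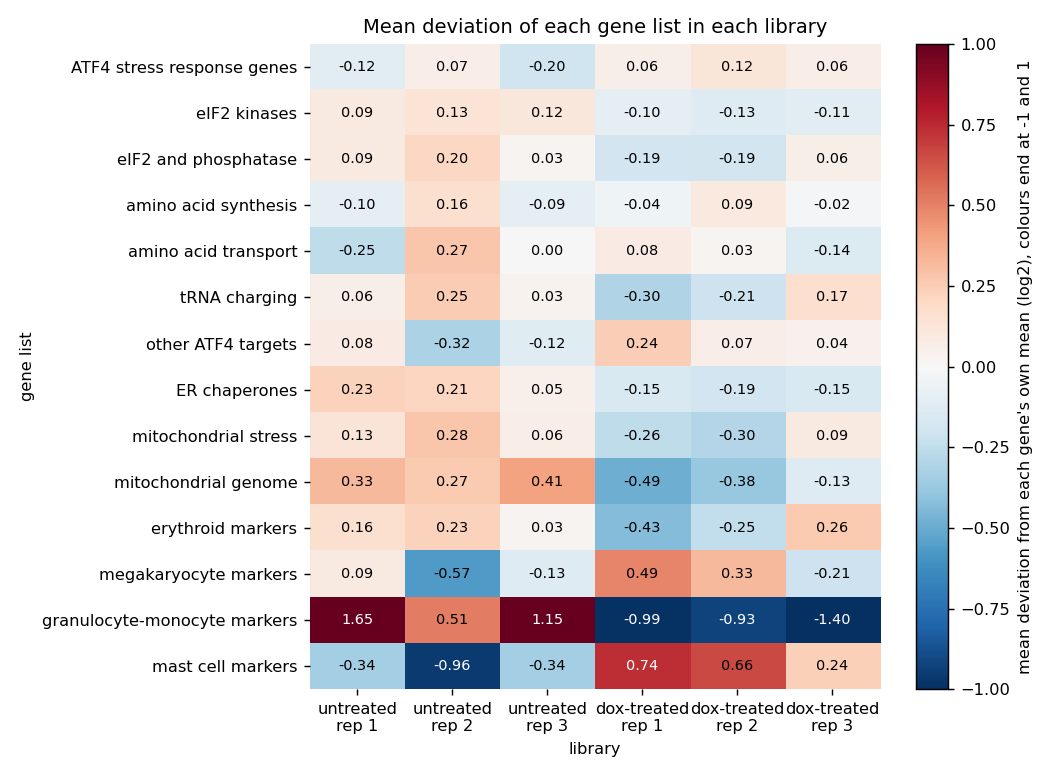
For each gene list (rows) and library (columns), the mean over its genes of the deviation from each gene's own mean over the 6 libraries, on the log2 scale, with colours ending at -1 and 1. Dox-treated replicate 3 differs in sign from the other dox-treated libraries for several lists, among them tRNA charging (0.17), mitochondrial stress (0.09) and erythroid markers (0.26), and the ATF4 stress response genes range from -0.20 to 0.12.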

How the data were processed

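RNA was sequenced from sorted MEPs in 3 dox-treated and 3 untreated libraries. Cutadapt removed adapters, RSEM quantified the reads against Ensembl transcripts of NCBIM37, and limma normalized them. For 12101 genes the authors deposited the log2 of CPM after adding 0.5 reads. The normalization factors and the filter on low genes are not given in the sources used here. Reads were recovered from the deposited log2 values, within 6.6e-09 of whole numbers.

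The genes and gene lists were chosen with earlier results of these data known. From each pathway list, genes past the threshold are named, or otherwise the 2 with the smallest p, and genes and cell type markers named outside this rule were chosen after their values were seen. limma (version 3.58.1, R 4.3.3) was run with lmFit and eBayes on the deposited values of the 12088 genes that reached 1 CPM in 3 or more libraries, without a block, with Benjamini–Hochberg adjustment over all of them. Alternatives changed the pseudocount, filter, weights, variance trend, scaling, block and threshold, and left out each library in turn. Fold changes with 0.5 reads added understate those of genes with few reads. Same-numbered replicates did not deviate together (correlations 0.02, -0.12 and -0.30), so their numbers were not taken to pair them. Positions, exons and lengths came from the NCBIM37 GENCODE annotation, copies from minimap2 2.31-r1302 and promoters from RefSeq.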

Additional observations from a re-analysis of the deposited data

How the results depend on the processing

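Counts of called genes depended on the fit. Over all genes 555 were called higher and 384 lower, and these numbers were 2515 and 2601 with array quality weights, 909 and 747 with a mean-variance trend, 1273 and 939 at an adjusted p under 0.1, and 53 and 29 with the replicate block. Among the 9 measured ATF4 pathway genes 2 were called higher and 1 lower. With the replicate block the numbers were 0 and 0, with the replicate block and voom precision weights 1 and 2, and with voom precision weights alone 1 and 2. Array quality weights gave 3 higher and 3 lower, a mean-variance trend 2 (*Nupr1* and *Psat1*, with *Trib3* lost) and 2, and an adjusted p under 0.1 gave 3 and 2. With at least 5 CPM in 3 libraries, a filter that removes *Trib3* and *Nupr1*, 0 were called higher and 2 lower. Leaving out each library in turn gave between 92 and 1801 genes higher and between 36 and 1687 lower over all genes, the highest of both without dox-treated replicate 3, and between 0 and 2 of the measured pathway genes in each direction. The log2 fold changes of the 9 genes kept their sign under the alternative fits, 16 for *Trib3* and *Nupr1* and 17 for each other gene, except *Asns*, which was 0.0446 with quantile normalization, 0.0362 with scaling by total reads, and between -0.2772 and 0.0816 with each library left out. Scaling by total reads moved the median of all genes tested from -0.03 to 0.08. The cause of these differences was not tested. Depth limits *Trib3* most, at 10 to 30 reads per library.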

Other observations

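Among 9854 genes outside the lists with a mean of at least 5 CPM, those whose pattern over the 6 libraries was most like the mean of the 9 measured genes, each centred on its own mean, were *Dnaja4* (Pearson r 0.99), *Kdm1a* (0.99) and *Cpd* (0.98). This describes 6 libraries that share their depth and groups, and the 3 genes are the highest of many compared. The feedback gene *Ppp1r15a* has the most upstream ATG triplets of the pathway genes searched, 7 in a leader of 764 bases.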
